A study of Mus musculus with 14 samples.

Results

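The peaks described here are dimethylated histone H3 lysine 4 (H3K4me2) peaks that were called in the Mll1 flox cells under both of their treatments and in neither sample of the MAF9 cells. They were chosen by their measured positions. A peak of the EtOH H3K4me2 list was kept if it lay on 1 of the 19 autosomes, was at least 500 bp wide, overlapped a 4OHT H3K4me2 peak by at least 1 bp and overlapped no DMSO or MM-401 H3K4me2 peak. Of the 100898 peaks in the EtOH H3K4me2 list, 98735 were autosomal and 38416 of those reached 500 bp. The rule kept 525 of the 38416, or 1.37%, and they are called flox-only peaks below. The 10 peak lists of the series together held 532629 peaks.

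MAF9 cells are mouse bone marrow cells transduced with the MLL-AF9 fusion, and they were treated for 2 days with DMSO or with 20 µM MM-401, a compound made to keep WDR5 from binding MLL1. The Mll1 flox cells carried the same fusion with floxed Mll1 alleles and 1 ER-cre allele (ER-cre+/-), and they were given EtOH or 400 nM 4OHT for 2 days, the latter releasing Cre to delete Mll1. H3K4me2 and WDR5 were mapped by ChIP-seq in all 4 conditions and MLL1 in DMSO and MM-401 alone, each from 1 library, and the 4 input libraries were not analysed here. All the cells therefore carried MLL-AF9, whereas the floxed alleles and Cre were found in the flox cells only. The study describes the same culture medium for both lines. The cell line and its experiment changed together and cannot be told apart. MLL1 was not mapped in the flox cells, so the deletion could not be checked in these lists.

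H3K4me2 marks the nucleosomes of promoters and enhancers that are active or poised in a given cell type. It is written by the MLL family of methyltransferases, of which MLL1 is a member, and WDR5 is a core subunit shared by their complexes. A set of H3K4me2 peaks found in one leukemia line and not in another can mark regulatory elements used by that line, and it can also collect small peaks close to a calling threshold, so the width, surroundings and WDR5 content of the flox-only peaks were described in turn.

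The lists held positions in the mm9 build without heights, scores or read depths. They held 100898 peaks for EtOH, 91305 for 4OHT, 105136 for DMSO and 92025 for MM-401 H3K4me2. The median H3K4me2 peak was 300 bp wide in EtOH, 375 bp in 4OHT, 425 bp in DMSO and 450 bp in MM-401. On autosomes, 38416 EtOH, 40186 4OHT, 48876 DMSO and 43743 MM-401 H3K4me2 peaks reached 500 bp. The WDR5 lists were less even in number, with 34587 peaks in EtOH, 41054 in 4OHT, 14481 in DMSO and 17273 in MM-401. With 1 library in each group no test between conditions was possible. Shares are given with 95% Wilson intervals and differences between shares with 95% Newcombe intervals, both of which cover counting error alone and treat neighboring peaks as independent. H3K4me2 overlaps used by the rule are a description.

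The flox-only peaks were narrow. Their median width was 625 bp, the 25th and 75th percentiles were 550 and 800 bp, and the widest spanned 3750 bp. The 35931 EtOH peaks that overlapped a peak in all 3 other H3K4me2 lists, called shared peaks below, made up 93.5% of the 38416 and had a median width of 1675 bp. The 277 peaks found in EtOH alone had a median of 575 bp. The portion of EtOH peaks that met the rule fell with width, from 379 of 7588 peaks (4.99%) at 500 to 750 bp to 79 of 4404 (1.79%) above 750 to 1000 bp and 9 of 15003 (0.0600%) above 2000 bp. At the width limit itself, 60 of 952 peaks of 500 bp (6.30%) met the rule, and 87 of 1027 peaks of 475 bp (8.47%), just below the limit, met its other criteria.

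The overlap criterion likewise cut through a continuous range. Of the 37529 EtOH peaks that overlapped 4OHT, the 525 flox-only peaks had no base under DMSO or MM-401 H3K4me2. A further 88 peaks had up to 10% of their length covered by the MAF9 lists together and 311 had above 10 to 25%. Those 88 peaks, just outside the rule, had a median width of 775 bp and included a peak of 13475 bp on chromosome 11 that is described below.

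Most flox-only peaks lay beside MAF9 H3K4me2. The median distance from edge to edge to the nearest DMSO or MM-401 H3K4me2 peak was 450 bp, with 25th and 75th percentiles of 125 and 2225 bp. Such a peak was found within 100 bp of 109 flox-only peaks (20.8%, 17.5 to 24.4) and within 2 kb of 388 (73.9%, 70.0 to 77.5). The other 137 (26.1%, 22.5 to 30.0) were more than 2 kb away, 59 of them more than 10 kb, 10 more than 50 kb and 6 more than 100 kb. The term flox-only therefore refers to called intervals, and for the majority of them it does not describe a locus without H3K4me2 in MAF9 cells.

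The reverse set showed another layout. Of 48876 autosomal DMSO peaks of at least 500 bp, 1604 (3.28%) overlapped MM-401 H3K4me2 and neither flox list, and these are called MAF9-only peaks below. Their median distance to the nearest flox H3K4me2 peak was 10925 bp, and 1260 of them (78.6%) were more than 2 kb away, compared with 26.1% of the flox-only peaks. The plot of distance classes shows most flox-only peaks in the near classes and most MAF9-only peaks in the far ones.

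**Figure D1:**
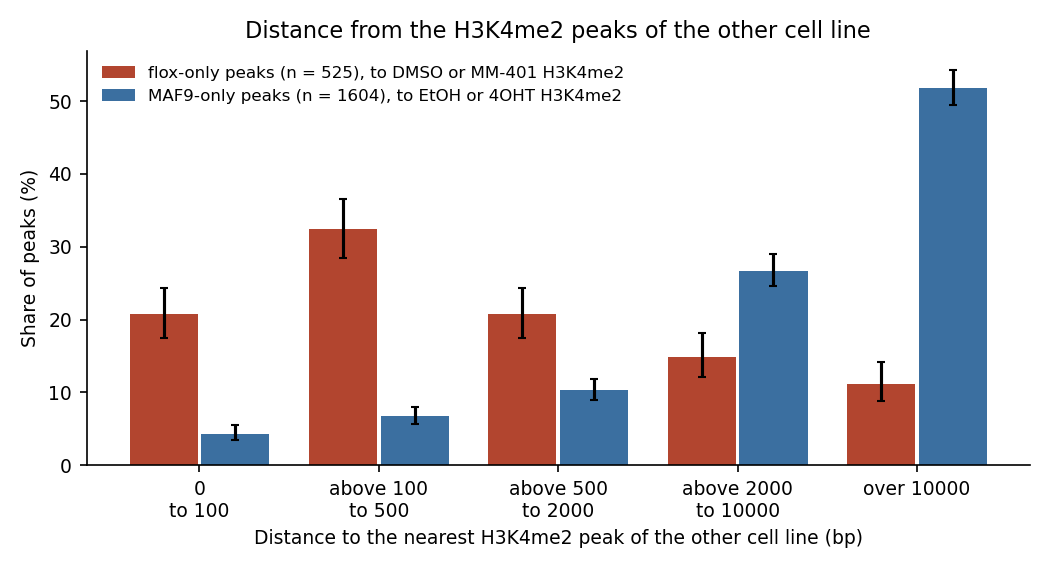
Share of the 525 flox-only peaks (red) and the 1604 MAF9-only peaks (blue) in each class of distance, in bp, to the nearest H3K4me2 peak of the other cell line. Bars give percentages and lines 95% Wilson intervals. The largest class is above 100 to 500 bp for the flox-only peaks (32.4%) and over 10000 bp for the MAF9-only peaks (51.8%).

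Within the EtOH list itself the flox-only peaks were rarely isolated. The median distance to the nearest other EtOH H3K4me2 peak was 175 bp, compared with 200 bp for shared peaks. Only 25 flox-only peaks (4.76%, 3.25 to 6.94) had no other EtOH peak within 10 kb, compared with 10.0% of all EtOH peaks of at least 500 bp and 10.5% of shared peaks (difference -5.69 percentage points, -7.24 to -3.49). The difference held among peaks of 500 to 750 bp, where 3.96% of flox-only and 11.8% of shared peaks were isolated (difference -7.83, -9.60 to -5.23). Among peaks above 1000 to 2000 bp the shares were 10.3% and 12.6%, and the interval of their difference included 0 (-7.77 to 8.24).

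The closest EtOH neighbor, of any width, was often a peak that MAF9 cells also had. The nearest neighbor of 304 flox-only peaks (57.9%) overlapped DMSO or MM-401 H3K4me2, and that of 24 (4.57%) was another flox-only peak. When EtOH peaks were joined across gaps of up to 1 kb, 368 flox-only peaks (70.1%, 66.0 to 73.9) fell in a chain with a peak overlapped in MAF9, 83 (15.8%) in a chain without one, and 74 (14.1%) stood alone. Neither the neighbor share nor the chain share was computed for other EtOH peaks. Of all EtOH peaks of at least 500 bp, 93.5% overlapped a peak in all 3 other H3K4me2 lists, so such neighbors are common. Isolation depended on the distance from MAF9 H3K4me2. Of the 388 peaks within 2 kb, 3 (0.773%) had no other EtOH peak within 10 kb, whereas of the 137 farther peaks 22 (16.1%, 10.9 to 23.1) had none, a share 5.61 points above that of shared peaks (0.390 to 12.7). Because most EtOH peaks overlap MAF9 H3K4me2, a limit on the distance to MAF9 also removes peaks with close EtOH neighbors.

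The agreement between EtOH and 4OHT over the flox-only peaks was partial. The 4OHT peaks covered a median of 48.1% of a flox-only peak, and 266 of the 525 were covered over less than 50% of their length, with 29 covered in full. Shared peaks were covered over a median of 89.6%. Among peaks of 500 to 750 bp the medians were 42.9% for flox-only and 77.8% for shared peaks, and 58.8% and 19.6% of them, respectively, were covered over less than 50%. The widest 4OHT peak on a flox-only peak had a median width of 425 bp and was narrower than the EtOH peak in 365 cases, wider in 155 and equal in 5. In 130 cases (24.8%, 21.3 to 28.6) a 4OHT peak on the flox-only peak also reached a DMSO or MM-401 peak, so that the same locus failed the criterion when read from the 4OHT list. When EtOH and 4OHT were exchanged in the rule, 357 4OHT peaks met it, and 130 of the 525 flox-only peaks overlapped 1 of them.

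Cover by 4OHT was greater for the flox-only peaks far from MAF9 H3K4me2. The median was 37.9% for peaks within 100 bp, 38.6% above 100 to 500 bp, 64.1% above 2000 to 10000 bp and 76.5% beyond 10000 bp, and the median peak width changed from 575 to 800 bp over the same classes. None of the 137 peaks more than 2 kb away had a 4OHT partner that reached a MAF9 peak. A partner would have to extend more than 2 kb past the flox-only peak to do so. The widest partners of these peaks had a median of 500 bp and a maximum of 3325 bp, so the distance limit left little room for it.

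**Figure D2:**
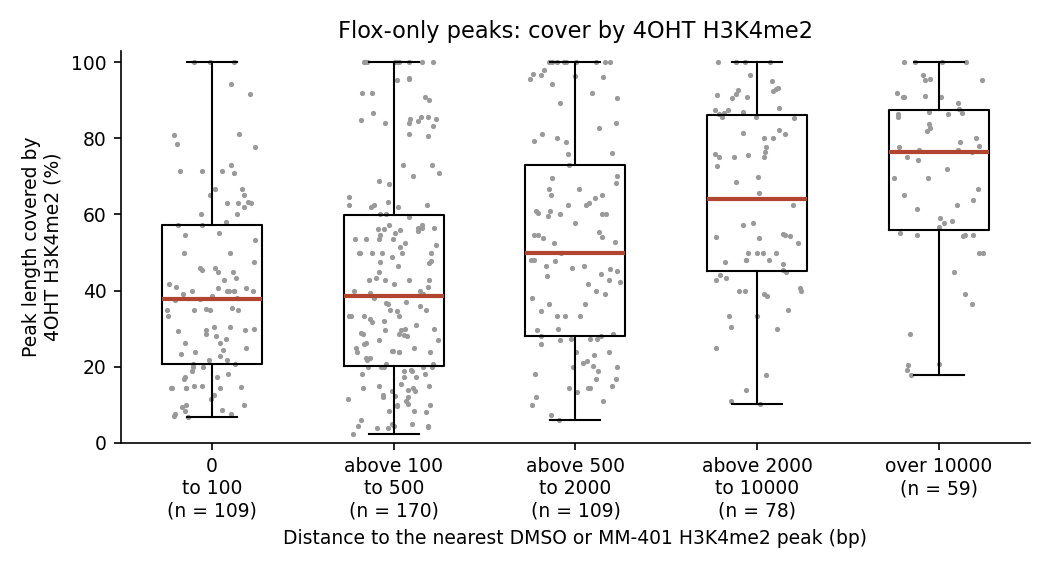
Percentage of each flox-only peak's length covered by 4OHT H3K4me2, by distance in bp to the nearest DMSO or MM-401 H3K4me2 peak. Points are peaks, boxes give the 25th and 75th percentiles with the median in red, and whiskers reach the lowest and highest values. The medians run from 37.9% in the nearest class to 76.5% in the farthest.

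The flox-only peaks above 2000 bp were covered by 4OHT over a median of 87.8%. The widest of them was found on chromosome 16 from 36277151 to 36280900, a span of 3750 bp, 10025 bp from the nearest MM-401 and 35300 bp from the nearest DMSO H3K4me2 peak. It was covered over 82.7% by 3 4OHT peaks, and an EtOH WDR5 peak crossed its left edge. That WDR5 peak overlapped a 4OHT and an MM-401 WDR5 peak, which both stayed outside the flox-only peak. The next, on chromosome 5 from 116033351 to 116036475 (3125 bp), lay wholly under a 4OHT peak of 3325 bp and held an EtOH WDR5 and an MM-401 MLL1 peak. The peak on chromosome 4 from 107455301 to 107458225 (2925 bp) and that on chromosome 11 from 116625551 to 116628375 (2825 bp) were covered over 93.2% and 96.5% and held neither protein in any list. The fifth, on chromosome 4 from 9033601 to 9036050 (2450 bp), was covered over 91.8%. It differed from the other 4 in lying 375 bp from MAF9 H3K4me2, and its 4OHT partner, 6150 bp wide, ran into that peak.

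The most remote flox-only peak was found on chromosome 12 from 94130726 to 94131450. It was 725 bp wide, was covered over 96.6% by 4OHT and lay 1033375 bp from any MAF9 H3K4me2 peak. The next in distance, 1024900 and 964175 bp away, were its neighbors in a stretch of 2196.0 kb, from 93097351 to 95293325, in which neither MAF9 list had an H3K4me2 peak. The flox lists had 13 (EtOH) and 11 (4OHT) H3K4me2 peaks there, covering 4750 and 3475 bp. The stretch held 11 EtOH and 12 4OHT WDR5 peaks, none of them in a flox-only peak, and 1 MM-401 and 0 DMSO WDR5 peaks. The MAF9 WDR5 lists were also the shorter ones, and these counts were not set against list length.

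WDR5 was rare in the flox-only peaks in every list. An EtOH WDR5 peak was found in 27 of the 525 (5.14%, 3.56 to 7.38), compared with 31.2% of all EtOH H3K4me2 peaks of at least 500 bp and 33.1% of shared peaks (difference -28.0 points, -29.6 to -25.7). A 4OHT WDR5 peak was found in 28 (5.33%, 3.72 to 7.60), compared with 31.8% of all and 33.7% of shared peaks. The flox-only peaks with EtOH WDR5 and those with 4OHT WDR5 were largely separate: 4 (0.762%) held both, compared with 19.7% of all peaks, and 51 (9.71%, 7.47 to 12.5) held at least 1 of them. Among peaks of 500 to 750 bp, 0.792% of flox-only and 1.56% of shared peaks held both. The interval of that difference included 0 (-1.40 to 0.769). Above 1000 to 2000 bp it did not, with 0 of 58 flox-only peaks and 8.74% of shared peaks (-9.28 to -2.51). Of the 277 peaks in EtOH alone, 3 (1.08%) held EtOH WDR5 and 11 (3.97%) held 4OHT WDR5.

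The MAF9 lists gave fewer still, in peaks that the rule kept for lacking MAF9 H3K4me2. DMSO WDR5 was found in 5 flox-only peaks (0.952%, 0.407 to 2.21), compared with 25.6% of all EtOH peaks of at least 500 bp, and MM-401 WDR5 in 2 (0.381%, 0.105 to 1.38), compared with 27.2%. MLL1 was found in 5 (0.952%, 0.407 to 2.21) in DMSO and in 9 (1.71%, 0.904 to 3.23) in MM-401, compared with 9.32% and 20.9% of all peaks. Weighted to the widths of the flox-only peaks, 2.00% of shared peaks held DMSO MLL1, inside the interval of the flox-only share. For MM-401 MLL1 the weighted share was 4.80%, above that interval. The DMSO MLL1 list came from another peak caller than the rest, and MLL1 levels in the 2 lists were not compared.

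Peak width moved with WDR5 content, and the differences in the flox WDR5 lists were smaller at matched width. Among peaks of 500 to 750 bp, EtOH WDR5 was held by 4.22% of flox-only and 6.36% of shared peaks (difference -2.14 points, -3.88 to 0.456), and 4OHT WDR5 by 5.54% and 7.07% (difference -1.53, -3.54 to 1.32). Both intervals included 0. Above 1000 to 2000 bp they did not, with 4 of 58 flox-only peaks (6.90%) holding EtOH WDR5 compared with 21.5% of shared peaks (difference -14.6, -18.9 to -5.08). Above 750 to 1000 bp the intervals for EtOH (-7.61 to 2.90) and 4OHT (-9.45 to 0.0741) included 0. Over 2000 bp, with 9 flox-only peaks, that for EtOH included 0 (-46.2 to 6.36) and that for 4OHT did not (-59.8 to -29.1). This class has no upper limit, so widths were not matched within it. The widest flox-only peak was 3750 bp and the widest shared peak 46650 bp. The weighting below used the same open class. Weighted to the widths of the flox-only peaks, 8.73% of shared peaks held EtOH WDR5 and 9.55% held 4OHT WDR5, both above the intervals of the flox-only shares.

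The MAF9 WDR5 lists differed at matched width too. The rule kept flox-only peaks without MAF9 H3K4me2, whereas shared peaks had it in both MAF9 lists. How far that choice alone lowers the MAF9 WDR5 shares was not tested. Among peaks of 500 to 750 bp, DMSO WDR5 was held by 1.06% of flox-only and 5.83% of shared peaks (difference -4.78, -5.69 to -3.05) and MM-401 WDR5 by 0.264% and 7.66% (difference -7.39, -8.15 to -6.01). Weighted to the flox-only widths, 7.94% of shared peaks held DMSO WDR5 and 9.67% held MM-401 WDR5. The flox-only peaks held flox WDR5 more often than MAF9 WDR5, with intervals that did not overlap, but the MAF9 lists were also the shorter ones. With all WDR5 lists reduced to the 14481 widest peaks, EtOH WDR5 was found in 2.10% of flox-only peaks (1.17 to 3.71), 4OHT in 1.90% (1.04 to 3.47), DMSO in 0.952% and MM-401 in 0.381%, and the flox and MAF9 intervals then overlapped. The MAF9-only peaks showed the reverse order, with DMSO WDR5 in 4.11% (3.25 to 5.20) and MM-401 WDR5 in 5.42% (4.42 to 6.64), compared with 2.00% (1.42 to 2.80) for EtOH and 1.93% (1.36 to 2.73) for 4OHT. Both sets were chosen for H3K4me2 in a single cell line, so neither order is independent of that choice. Of all autosomal DMSO peaks of at least 500 bp, 21.4% held DMSO, 22.9% MM-401, 26.4% EtOH and 27.2% 4OHT WDR5. A low WDR5 share was therefore found in the MAF9-only peaks too, without matching for width.

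**Figure D3:**
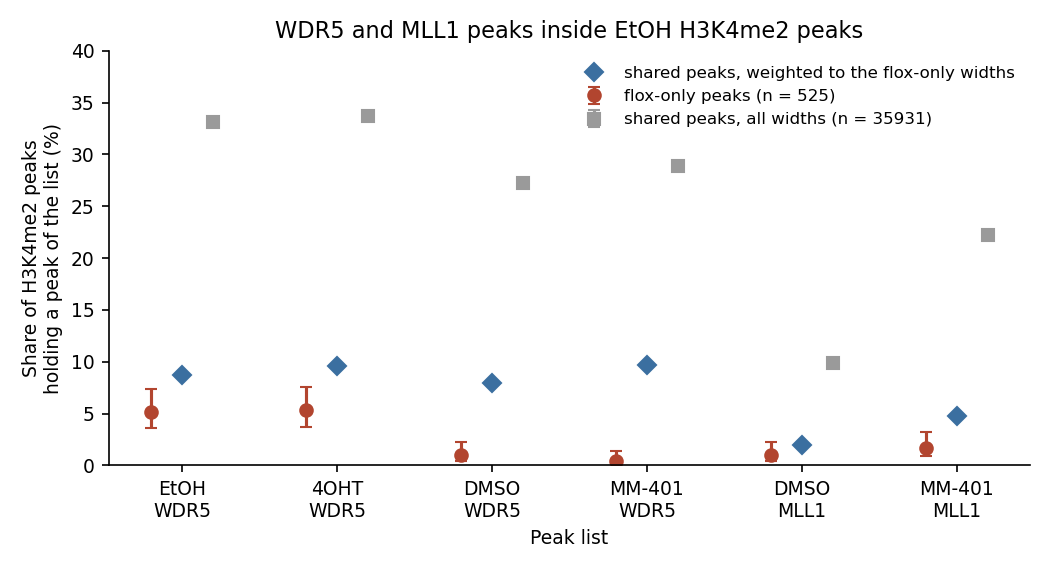
Percentage of H3K4me2 peaks holding a peak of each WDR5 or MLL1 list, for flox-only peaks (red circles), shared peaks weighted to the same widths (blue diamonds) and all shared peaks (gray squares). Lines are 95% Wilson intervals, smaller than the marker for the squares. The red circles lie between 0.381% and 5.33%, below the gray squares in all 6 lists.

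WDR5 content was also compared by distance from MAF9 H3K4me2. EtOH WDR5 was found in 20 of 388 flox-only peaks within 2 kb (5.15%) and in 7 of 137 farther ones (5.11%). The shares for 4OHT WDR5 were 4.38% and 8.03%, and the interval of the difference included 0 (-0.656 to 9.65). All 5 peaks with DMSO WDR5 were within 2 kb; 0 of the 137 farther peaks held it, which allows a share of up to 2.19% at a limit of 3 counts (Wilson upper bound 2.73%).

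The WDR5 peaks inside flox-only peaks were short, and so were those of the whole lists. The median over all autosomal WDR5 peaks was 125 bp in EtOH and 125 bp in 4OHT. The 27 EtOH WDR5 peaks ranged from 75 to 375 bp with a median of 150 bp, and 10 were no wider than 100 bp. The 29 from 4OHT ranged from 75 to 300 bp with the same median. They seldom recurred. Of the 27, 3 (11.1%, 3.85 to 28.1) overlapped a 4OHT WDR5 peak and 4 overlapped a DMSO or MM-401 WDR5 peak, and of the 29, 2 (6.90%, 1.91 to 22.0) overlapped an EtOH WDR5 peak. In shared peaks, 32.1% of 17574 EtOH WDR5 peaks overlapped a 4OHT WDR5 peak and 30.0% of 18839 4OHT WDR5 peaks an EtOH one, without matching for width. A WDR5 peak within 2 kb was more common, found near 26.9% of flox-only peaks for EtOH and 35.6% for 4OHT, compared with 41.1% and 44.0% of shared peaks.

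Of the 4 flox-only peaks with WDR5 in both flox lists, the widest was found on chromosome 16 from 36288926 to 36289875 (950 bp). Its EtOH WDR5 peak, from 36289201 to 36289550, overlapped a 4OHT WDR5 peak from 36289226 to 36289400 and an MM-401 WDR5 peak from 36289301 to 36289450. On chromosome 4, the peak from 126698926 to 126699500 had EtOH, 4OHT and DMSO WDR5 peaks that overlapped each other, and it abutted MM-401 H3K4me2. In the other 2, on chromosome 11 from 60915151 to 60915850 and on chromosome 15 from 8394026 to 8394575, the EtOH and 4OHT WDR5 peaks lay side by side without overlap.

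Both the widest peak and the widest with WDR5 in both lists belonged to a stretch of 48.7 kb on chromosome 16, from 36242251 to 36290925, without MAF9 H3K4me2. EtOH had 10 and 4OHT 11 H3K4me2 peaks in it. WDR5 was called there in all 4 conditions, with 3 peaks in EtOH, 6 in 4OHT, 1 in DMSO and 3 in MM-401. A further flox-only peak on this chromosome, from 36307276 to 36307825, held EtOH and MM-401 WDR5 peaks, so both flox-only peaks with MM-401 WDR5 came from the same part of chromosome 16.

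The widest flox-only peak with MAF9 WDR5 was found on chromosome 9 from 44869126 to 44870400 (1275 bp). It held a DMSO WDR5 peak of 100 bp, from 44869751 to 44869850, and no flox WDR5. The flox-only peak on chromosome 13 from 51476826 to 51477350 held a DMSO WDR5 peak of 400 bp and a DMSO MLL1 peak, the only 1 of the 525 to hold both proteins in DMSO.

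The flox-only peaks were spread over many windows of 1 Mb. Of 1946 windows with an EtOH H3K4me2 peak of at least 500 bp, 354 (18.2%) held a flox-only peak, and 243 of those held 1. The 33 windows with 3 or more held 126 peaks (24.0%, 20.5 to 27.8). Windows rich in EtOH peaks held more: the median number of EtOH peaks of at least 500 bp was 12 in windows without a flox-only peak, 32 in those with 1 and 54 in those with 3 or more. The portion of EtOH peaks that were flox-only also differed with this density, at 0.980% (0.706 to 1.36) in windows of 1 to 10 peaks, 0.968% (0.795 to 1.18) in those of 11 to 25, 1.32% (1.16 to 1.50) in those of 26 to 50 and 2.21% (1.90 to 2.57) in those with over 50.

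The fullest window was 116 to 117 Mb of chromosome 11, with 12 flox-only peaks among 68 EtOH peaks of at least 500 bp (17.6%, 10.4 to 28.4). In 9 of the 12 the nearest MAF9 H3K4me2 was more than 2 kb away. The next, 44 to 45 Mb of chromosome 9, had 7 of 74 (9.46%, 4.66 to 18.3), 2 of them more than 2 kb from MAF9. Another 5 windows had 5 each, at 123 Mb of chromosome 5, 79 Mb of chromosome 10, 24 and 29 Mb of chromosome 17 and 5 Mb of chromosome 19. In these 5 the flox-only peaks were 6.33 to 8.93% of EtOH peaks of at least 500 bp, and at most 2 in a window were more than 2 kb from MAF9. Outside chromosome 11, the widest flox-only peak of each of these windows was 1275 bp on chromosome 9 (described above), 1475 bp on chromosome 5 from 123224276 to 123225750, 1350 bp on chromosome 10 from 79294426 to 79295775, with an EtOH WDR5 peak across its edge, 1475 bp on chromosome 17 from 24422076 to 24423550, 2125 bp on chromosome 17 from 29659901 to 29662025 and 925 bp on chromosome 19. The peak of 1475 bp on chromosome 17 was 24250 bp from MAF9 H3K4me2 and was covered over 39.0% by 4OHT, and that of 2125 bp was 3275 bp away with 1700 bp under 4OHT.

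Of the 12 peaks on chromosome 11, 8 fell in a block of 87.4 kb, from 116556101 to 116643525. In it EtOH had 20 H3K4me2 peaks covering 28500 bp and 4OHT had 23 covering 26000 bp, whereas DMSO had 1 of 850 bp and MM-401 1 of 775 bp. The MAF9 peaks of the block lay under an EtOH peak of 13475 bp, from 116607276 to 116620750, which for this reason did not meet the rule. A 4OHT peak covered 99.4% of that wide peak and DMSO H3K4me2 6.31%, and it held 2 EtOH and 5 4OHT WDR5 peaks. The block as a whole had 4 EtOH and 8 4OHT WDR5 peaks, compared with 0 in DMSO and 1 in MM-401, whose WDR5 lists were shorter. Among its 8 flox-only peaks, 1 held EtOH WDR5 and another 4OHT WDR5.

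**Figure D4:**
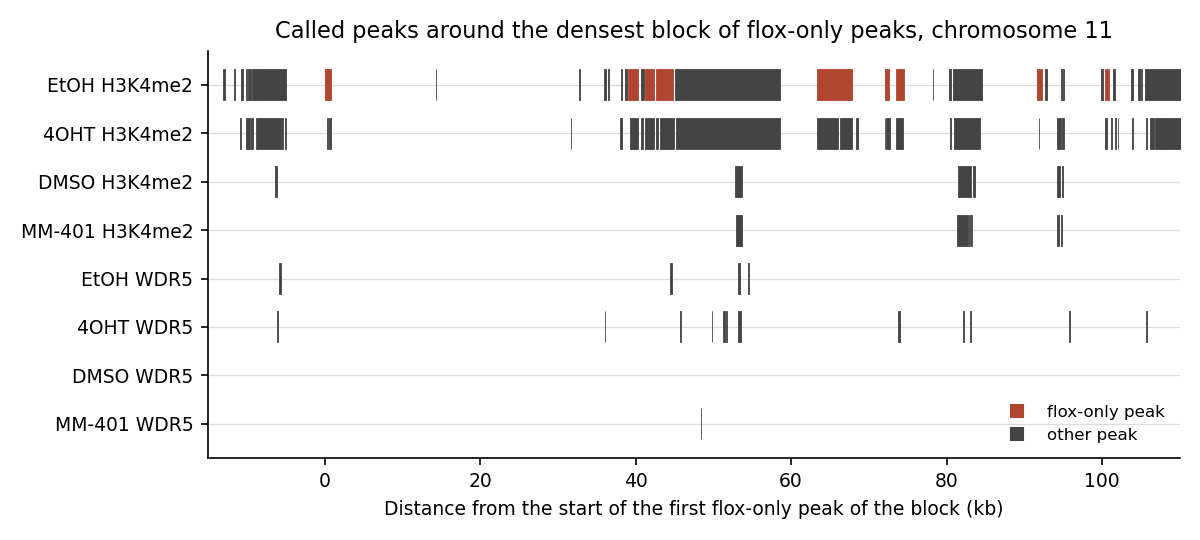
Called peaks of 8 lists on chromosome 11, by distance in kb from the start of the first flox-only peak of the block. Flox-only peaks are red and other peaks dark gray. The EtOH and 4OHT H3K4me2 peaks run together over the wide peak of 13475 bp, under which DMSO has a single peak of 850 bp.

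Blocks of this kind were few. Cut at every DMSO or MM-401 H3K4me2 peak, the autosomes had 497 stretches with a flox-only peak, 476 of which had 1, 16 had 2 and 5 had 3 or more. The 49 peaks in stretches with 2 or more were 9.33% of the 525. The 2 stretches with 4 adjoin each other in the block on chromosome 11, and those with 3 were on chromosome 9 from 36605351 to 36683825 (78.5 kb), on chromosome 9 from 44864051 to 44872250 (8.20 kb) and on chromosome 12 in the stretch given above. In the stretch of 78.5 kb, EtOH and 4OHT H3K4me2 covered 3425 and 3450 bp.

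Across chromosomes the flox-only portion of EtOH peaks of at least 500 bp was highest on chromosome 17, with 43 of 1638 (2.63%, 1.95 to 3.52), followed by chromosome 9 with 49 of 2180 (2.25%). It was lowest on chromosome 1, with 13 of 2516 (0.517%, 0.302 to 0.882). The intervals of chromosomes 17 and 9 lay above the 1.37% of all autosomes, those of chromosomes 1 and 8 lay below it, and those of the other 15 included it. Without the 2 fullest windows, chromosome 17 remained at 2.63%, chromosome 9 was at 1.99% and chromosome 11 changed from 1.77% to 1.40%. The MAF9-only peaks had another order. Chromosome 1 had their highest portion of DMSO peaks, 221 of 3578 (6.18%), and chromosome 11 the lowest (1.74%), and the interval of 5 chromosomes lay above and that of 5 below their 3.28% over all autosomes.

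**Figure D5:**
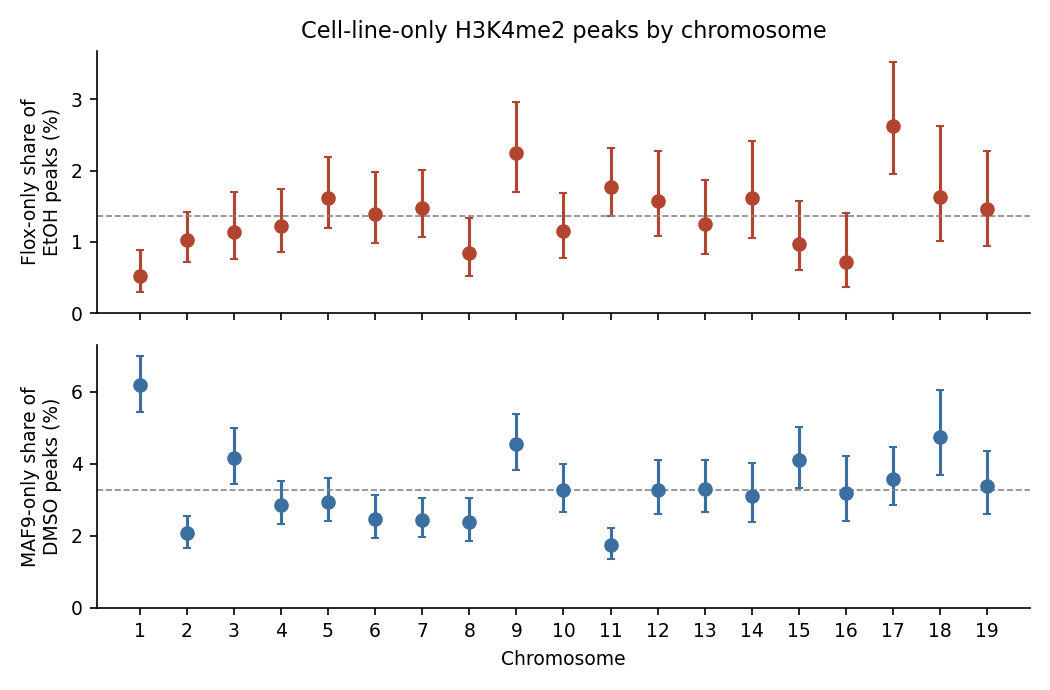
Flox-only share of EtOH H3K4me2 peaks (top) and MAF9-only share of DMSO H3K4me2 peaks (bottom) of at least 500 bp, in percent, for each autosome. Lines are 95% Wilson intervals and dashed lines the shares over all autosomes. Chromosome 1 is lowest in the top panel (0.517%) and highest in the bottom panel (6.18%).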

How the data were processed

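Cells were crosslinked and immunoprecipitated by the study, and the reads were aligned to mm9 with Bowtie per the submitters' processing notes. The authors deposited peak positions alone, as chromosome, start and end. Per the study's methods and the file headers, 9 lists came from HPeak, whose starts and ends lie on a grid of 25 bp, and the DMSO MLL1 list from MACS. Its starts were read as counted from 0, and an error of 1 bp is possible. The study states a p-value cutoff for the MACS peaks, whereas thresholds and filters of the HPeak lists are not given in the sources used here.

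From these positions, overlaps of at least 1 bp, distances from edge to edge, widths and window counts were computed in Python 3.11.15 with numpy 2.4.6 and pandas 2.3.3, and the overlap steps were checked on simulated lists. Shares carry Wilson and differences Newcombe intervals at 95%. Weighting to the flox-only widths used steps of 25 bp up to 2000 bp and 1 class above.

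The flox-only peaks, and all comparisons made on them, were chosen with earlier results of these data known. Chains of EtOH peaks, stretches without MAF9 H3K4me2, weighting by width and MAF9 cover were added after the lists had been compared. Regions are named by width, window count, distance or WDR5 and MLL1 content, and the other peaks with WDR5 in both flox lists or in MAF9, the widest peaks of the last 2 windows, the stretches and the 13475 bp peak were picked after their values were seen. No genes are named, since no mm9 annotation was used here.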

Additional observations from a re-analysis of the deposited data

Results flagged for a closer look

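In the lists as deposited, 27 of the 525 flox-only peaks held an EtOH WDR5 peak and 28 a 4OHT WDR5 peak, a difference of 0.190 percentage points, whereas 5 held a DMSO and 2 an MM-401 WDR5 peak, a difference of -0.571 points. The signs are opposite in the 2 cell lines, each from 1 library per condition, and the difference was not tested. The 4OHT WDR5 list is also the longer, with 41054 peaks compared with 34587 in EtOH. The sign in the flox cells turned round with lists of equal length (2.10% in EtOH and 1.90% in 4OHT) and with WDR5 peaks over 200 bp (1.14% and 0.571%).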

How the results depend on the processing

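Of 40 alternatives, 9 left a value within its range and 31 moved it, mostly by changing which peaks were counted. The 525 flox-only peaks became 69 at a minimum width of 1000 bp, 137 with no MAF9 H3K4me2 within 2 kb, 259 with 50% cover by 4OHT and 2135 when the MAF9 lists were reduced to their widest 50%. With every H3K4me2 list at 91305 peaks there were 585. Alternatives chosen after seeing the data gave 802 without the 4OHT list, 890 without MM-401 and 1233 without DMSO, the list on which the count rested most. The share holding WDR5 was 1.14% for EtOH, 0.571% for 4OHT and 0.381% for DMSO with WDR5 peaks over 200 bp. It was 2.10% for EtOH and 1.90% for 4OHT with lists of equal length. With WDR5 within 2 kb it was 26.9% for EtOH, 35.6% for 4OHT, 14.9% for both and 11.6% for DMSO. At 1000 bp or more, 10.1% held EtOH WDR5 and 0 of 69 WDR5 in both flox lists, which at a limit of 3 counts allows up to 4.35% (Wilson upper bound 5.27%). Beyond 2 kb from MAF9 H3K4me2, 8.03% held 4OHT WDR5, 0 both and 0 DMSO. In each alternative run on shared peaks too (the width of the WDR5 peaks, equal lists and 2 kb), their share stayed above that of flox-only peaks. These alternatives used all shared peaks, which were wider, and were not matched for H3K4me2 peak width. The share in windows with 3 or more was 15.2% at 500 kb, 34.5% at 2 Mb, 8.70% for peaks of at least 1000 bp and 17.5% beyond 2 kb. The isolated share was 8.70% at 1000 bp, 16.1% beyond 2 kb, 7.05% for a distance of 5 kb and 1.90% for 25 kb. Chromosome 17 was highest in all 3 alternatives, with 0.862% at 1000 bp and 0.977% beyond 2 kb. No paired analysis was possible because each condition and antibody had 1 library. Without depth or peak heights, a peak missing from a list cannot be told apart from one just under its calling threshold.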
